A study of Mus musculus with 12 samples.

Results

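The genes described here are 10 regulators of the G1 phase of the cell cycle, measured in whole mouse liver. They are the D-type cyclin genes Ccnd1, Ccnd2 and Ccnd3, the E-type cyclin genes Ccne1 and Ccne2, the kinase genes Cdk4 and Cdk6, and the inhibitor genes Cdkn1b, Cdkn1c and Cdkn2c. They were chosen by name, and each name matched 1 of the 48537 genes in the deposited table. Cdkn1a, the remaining inhibitor gene of the Cip/Kip family, is outside this choice and its values are given where they bear on a family total. The data were RNA-seq of 12 livers in 3 groups of 4, all collected at zeitgeber time 10 (hours from lights on). The groups were REV-ERB double-knockout livers (DKO) that re-expressed REV-ERBalpha in its WT form, DKO livers with YFP, and controls, which were wildtype livers with YFP. REV-ERBalpha and REV-ERBbeta are nuclear receptors that repress transcription within the circadian clock. The deposited columns of the DKO livers with YFP carry the name Cre, the recombinase used to delete genes. Cre and the loss of REV-ERB therefore cannot be told apart in comparisons with controls. The columns of the re-expression livers carry WT in its place, so the labels do not settle whether these livers also had Cre. The titles name YFP for the livers labelled DKO and for controls, whereas the column names carry it in all 3 groups, so whether re-expression livers also carried YFP is not settled by the labels. The promoter that drove Cre, the strain, the sex and the age were not found in the labels.

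A cell passes from G1 into DNA replication when cyclin-dependent kinases (CDKs) phosphorylate the retinoblastoma protein and so release E2F transcription factors. D-type cyclins activate CDK4 and CDK6 in response to growth signals, and E-type cyclins then activate CDK2. Proteins of the INK4 family bind CDK4 and CDK6 alone, whereas Cip/Kip proteins bind complexes of cyclin and CDK. Most hepatocytes of an adult liver rest outside the cycle and can return to it after loss of liver mass, when cyclin D1 is induced. The circadian clock is known to reach the cycle through Wee1 and through Cdkn1a.

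Each library held between 5621667 and 6906221 reads, recovered from the steps of the TPM values, a level scaled by gene length and library size. The labels were examined through the REV-ERB genes and their target Arntl. Nr1d1 had 171 to 217 TPM in re-expression livers, 74.8 to 91.7 TPM in livers labelled DKO and 64.1 to 76.2 TPM in control livers, and Nr1d2, at 83.7 to 99.6 TPM in livers labelled DKO and 82.3 to 110.7 TPM in controls, overlapped as well. A whole-gene value includes exons that a deletion may leave in place and so checks no deletion, for which reason the group is called the livers labelled DKO. Arntl, which REV-ERB represses, had 13.5 to 16.0 TPM in re-expression livers, 18.3 to 21.4 TPM in livers labelled DKO and 0.562 to 1.02 TPM in control livers. Every re-expression liver was thus below every liver labelled DKO, by a log2 change of -0.38 ± 0.11 (SE) that was not called (limma adjusted p = 0.398), and above every control. Hepatocyte marker genes summed to between 38044 and 43533 TPM in every library. Control livers 3 and 4 stood apart from control livers 1 and 2 on the second principal component, at -43.8 and -48.7 against 26.9 and 6.36, and their size factors were lower, at 0.867 and 0.88 against 1.08 and 1.13.

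Promoter sequence from RefSeq (build GRCm38.p6, 250 bases before to 50 after each start) was matched by symbol for 6 of the 10 genes, namely Ccnd3, Ccne1, Cdk4, Cdk6, Cdkn1b and Cdkn2c. These 6 genes have 8 windows, as Ccnd3 and Cdkn2c have more than a single start. The windows of Ccne1, the gene with the lowest ratio between livers labelled DKO and controls, and of Cdk4, the gene with the most RNA, are shown 5′ to 3′ over their first 200 bases. The Ccne1 stretch is chr7:38107541-38107740 on the minus strand, with GC boxes, the GGGCGG motif on either strand, in capitals. The Cdk4 stretch is chr10:127063285-127063484 on the plus strand, with E-boxes, the CACGTG motif through which the clock activators act, in capitals.
Ccne1: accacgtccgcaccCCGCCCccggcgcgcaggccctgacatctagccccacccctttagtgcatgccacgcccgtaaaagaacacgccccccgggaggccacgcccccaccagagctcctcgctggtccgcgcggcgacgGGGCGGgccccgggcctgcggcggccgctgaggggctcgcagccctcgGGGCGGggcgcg
Cdk4: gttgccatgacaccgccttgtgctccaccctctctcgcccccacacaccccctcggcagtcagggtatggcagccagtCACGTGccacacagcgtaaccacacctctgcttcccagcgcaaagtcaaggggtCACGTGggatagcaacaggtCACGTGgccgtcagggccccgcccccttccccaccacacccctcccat
The Ccne1 window held 4 GC boxes over its 300 bases, the last of them past the printed stretch, a number reached by 5.49% of all 32851 promoter windows. The Cdk4 window held 4 E-boxes, the last again past the printed stretch, a number reached by 8 of all windows (0.0244%). The ROR element core AGGTCA, the element that REV-ERB binds, was found on either strand in a single window each of Ccnd3, Cdk4 and Cdkn2c, against 16.3% of all windows. In Cdk4 it starts 102 bases before the start and shares its last bases with an E-box. At least 1 E-box was found in a single window each of Cdk4, Cdk6 and Cdkn2c, against 7.15% of all windows. At least 1 GC box was found in 5 of the 6 genes, against 35.7% of all windows, and a window of Cdkn2c held 4 as that of Ccne1 did. The long ROR element, the D-box TTANGTAA and the E2F sites TTTCGCGC, TTTGGCGC and TTTCCCGC had no match in the windows of these 6 genes, against 0.219%, 2.32% and 1.84% of all windows. A match describes letters in the window and is not a measurement of binding.

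The kinase genes had the highest mean levels. Over all 12 livers the means were 26.6 TPM for Cdk4, 19.1 for Cdk6, 14.96 for Cdkn1b, 14.7 for Ccnd1, 7.06 for Ccnd3, 5.78 for Ccnd2, 5.17 for Cdkn2c, 3.12 for Ccne2, 2.61 for Ccne1 and 0.703 for Cdkn1c. Cdk4 was above Cdk6 in 12 of 12 livers with no overlap of the ranges. Ccnd1 was above Ccnd3 in 12 of 12 livers and Cdkn2c above Ccne2 in 12 of 12, although their ranges over all livers overlapped. Cdkn1b and Ccnd1 could not be ordered, since Cdkn1b was the higher in 6 of 12. The other neighbours in this order kept it in 9 to 11 of the 12 livers. Ccnd1 was above Cdk6 in DKO liver 3 and in control liver 3, and Cdkn1b was above Cdk6 in DKO liver 1. The levels divide by the summed exon length of each gene, which is 13989 bases for Cdk6 and 3249 for Cdk4, so isoform use affects the order.

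**Figure D1:**
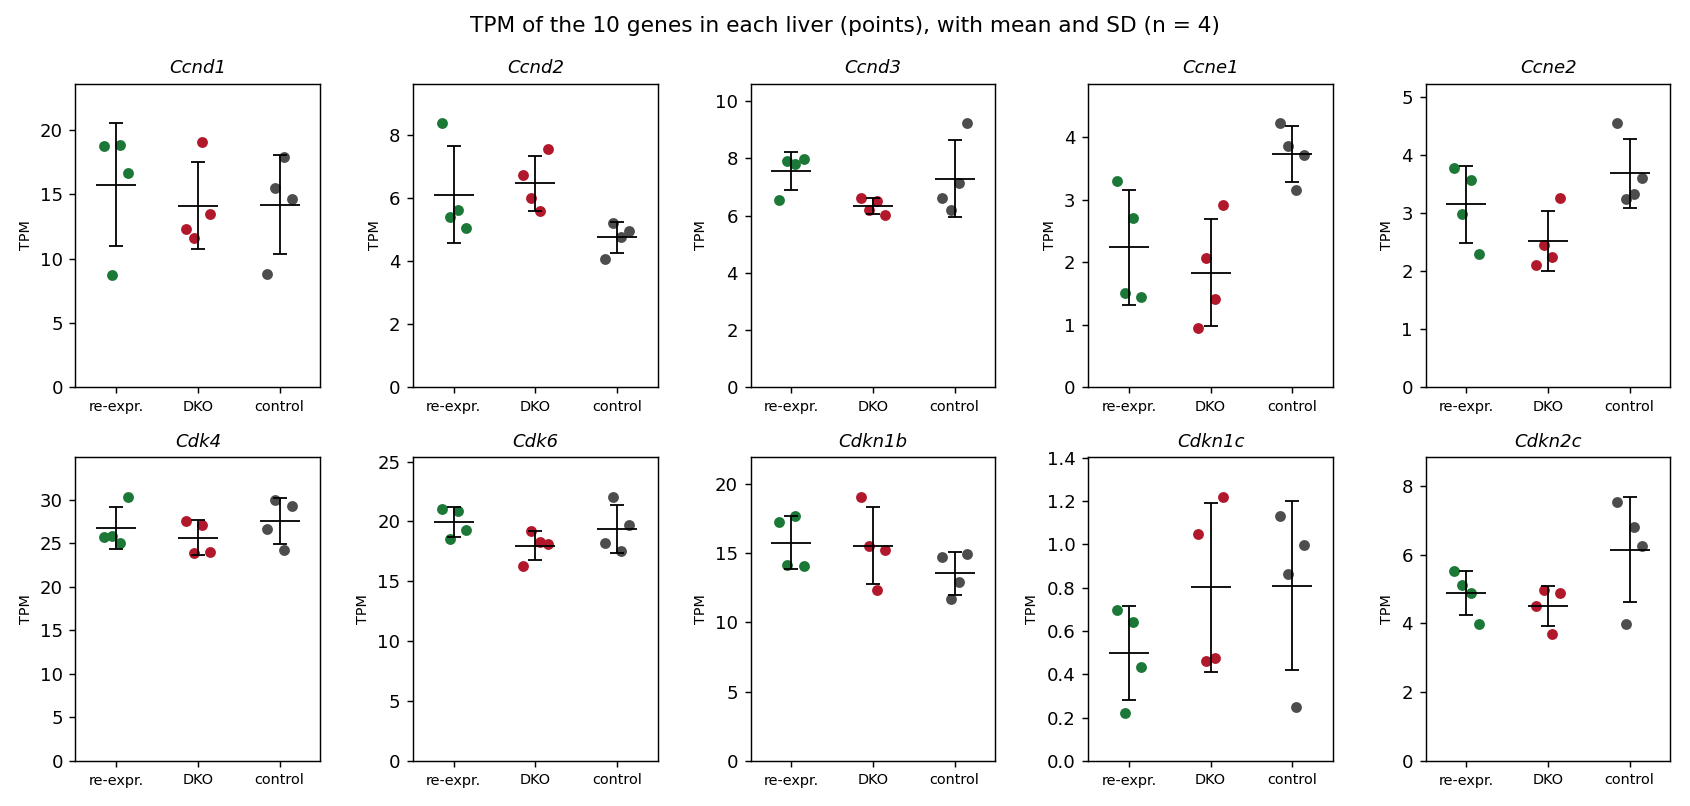
TPM of each of the 10 genes (vertical axes, each from 0) in re-expression livers, livers labelled DKO and control livers. Points are single livers, the horizontal line is the mean and the bars are the SD (n = 4). The 4 livers labelled DKO lie above all controls for Ccnd2 and below all controls for Ccne1.

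How the RNA of these G1 regulators differs without REV-ERB is the question of the first comparison, between livers labelled DKO and controls. None of the 9 genes with a mean of at least 1 TPM was called, against 5.33% of the 17957 genes tested (limma on log2(TPM + 1), 2-sided, Benjamini-Hochberg adjusted p under 0.05). At an unadjusted p under 0.05 there were 3 of 9, Ccne1 and Ccne2 with lower and Ccnd2 with higher means in livers labelled DKO, against 18.4% of all genes. The groups did not overlap for Ccnd2 and Ccne1, 2 of the 9, against 11.5% of all genes. In the authors' deposited table, whose first numbered comparison followed this contrast (r = 0.996 across 4790 genes), these same 2 genes had an adjusted p under 0.05, as did 9.19% of the genes with one. Limma on the recovered reads (voom) called 1 of the 9, Ccne1, against 6.78% of all genes. The median log2 change of the 9 genes was -0.10, beside 0.00 for all genes tested, and 3 of the 9 estimates were above 0 and 6 below.

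Ccne1 (chromosome 7, 38097984 to 38107534, minus strand, build mm10) encodes cyclin E1, which activates CDK2 at the entry to S phase. It had 0.940, 2.07, 1.41 and 2.91 TPM in livers labelled DKO and 4.23, 3.86, 3.15 and 3.72 TPM in control livers. Every liver labelled DKO was below every control. The mean was 1.84 ± 0.856 TPM in livers labelled DKO and 3.74 ± 0.446 TPM in control livers (SD, n = 4), a ratio of 0.491. The log2 change was -0.79 ± 0.25 (SE, limma adjusted p = 0.106), and its 95% interval of -1.33 to -0.24 corresponds to a ratio of TPM + 1 between 0.398 and 0.846. These levels rest on few reads, between 6 and 16 per library in livers labelled DKO and between 17 and 25 in control livers, in all 42 and 86 reads. Across alternative settings the adjusted p was 0.046 to 0.247, with the lowest from voom, whose log2 change was -1.12. The authors' deposited table gave a log2 change of -1.04 for Ccne1 with an adjusted p of 0.0476.

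Ccne2 (chromosome 4, 11191351 to 11204779, plus strand) encodes cyclin E2, the other activator of CDK2 in this family. It had 2.11, 2.45, 2.25 and 3.27 TPM in livers labelled DKO and 4.55, 3.25, 3.33 and 3.61 TPM in control livers. The highest liver labelled DKO and the lowest control met at 3.27 and 3.25 TPM, so the groups overlapped there. The log2 change was -0.42 ± 0.17 (SE, limma adjusted p = 0.209). The summed E-type cyclin level was 3.05 to 6.18 TPM in livers labelled DKO and 6.48 to 8.78 TPM in control livers. Of that sum Ccne1 made up 40.6 ± 7.5% in livers labelled DKO and 50.5 ± 2.8% in control livers (SD, n = 4). Ccne2 shares 609 exon bases with Ints8 on the opposite strand, and no source used here gives the strand setting of the counting.

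Among the D-type cyclins, Ccnd2 (chromosome 6, 127125162 to 127152193, minus strand) had 6.75, 6.004, 5.58 and 7.55 TPM in livers labelled DKO and 4.07, 5.21, 4.76 and 4.97 TPM in control livers. Its lowest liver labelled DKO was above its highest control. The mean was 6.47 ± 0.865 TPM in livers labelled DKO and 4.75 ± 0.49 TPM in control livers (SD, n = 4). The log2 change was 0.37 ± 0.15 (SE, limma adjusted p = 0.216, from 0.105 to 0.409 over the alternatives), with a 95% interval of 0.04 to 0.71. The authors' deposited table gave Ccnd2 a log2 change of 0.45 with an adjusted p of 0.0392. Ccnd2 rested on 118 to 161 reads per library in livers labelled DKO and 90 to 121 in control livers.

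Markers of other liver cell types were set beside Ccnd2 and Ccne1, since in a whole liver fewer cells of a type and less RNA per cell cannot be told apart. The 7 stellate cell markers summed to 209.7 to 236.8 TPM in livers labelled DKO and 131 to 176 TPM in control livers, with 3 of 7 called higher (Reln, Lrat and Dcn), where 5.33% of all genes were called in either direction. The 7 sinusoidal endothelium markers summed to 216 to 271 TPM in livers labelled DKO and 184 to 202 TPM in control livers, with 0 of 7 called by limma or voom and 4 of 7 at an unadjusted p under 0.05, against 18.4% of all genes. The 5 red blood cell genes summed to 399.9 to 686 TPM in livers labelled DKO and 276 to 382 TPM in control livers, with 0 of 5 called by limma, 1 by voom and 5 of 5 at an unadjusted p under 0.05. None of these 3 sums overlapped between the groups, whereas those of the Kupffer cell, cholangiocyte, lymphocyte and hepatocyte lists did. Single genes of the overlapping lists were called higher in livers labelled DKO, namely Sox9 of the cholangiocyte list (log2 change 1.70 ± 0.21 (SE), limma adjusted p = 0.00078), 1 of 4 tested, and Cps1 and Ttr of the hepatocyte list (log2 change 0.32 each, limma adjusted p = 0.0156 and 0.025), 2 of 6. Of the Kupffer cell and lymphocyte lists 0 of 7 and 0 of 4 tested genes were called by limma or voom, and 0 had an unadjusted p under 0.05. In livers labelled DKO all 7 Kupffer cell estimates were below 0, with log2 changes of -1.08 to -0.31 and a median of -0.49. Those of the lymphocyte list ran from -0.28 to 0.51. Those of the hepatocyte list ran from -0.21 for Alb to 0.38 for Apoa1, with Serpina1a also below 0 at -0.10. Those of the cholangiocyte list ran from -0.22 for Spp1 to 1.70 for Sox9. No stellate, endothelial or red blood cell marker was at 0 in any liver. The part of these cell types in the differences of Ccnd2 and Ccne1 was not tested.

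Ccnd1 (chromosome 7, 144929931 to 144939925, minus strand) encodes cyclin D1, the D-type cyclin induced when hepatocytes re-enter the cycle. It had 12.3, 11.6, 19.0 and 13.4 TPM in livers labelled DKO and 8.77, 15.5, 17.9 and 14.6 TPM in control livers. The groups overlapped widely, and the means of 14.1 and 14.2 TPM gave a log2 change of 0.01 ± 0.26 (SE, limma adjusted p = 0.995). The 95% interval of -0.57 to 0.58 leaves room for a ratio of TPM + 1 between 0.674 and 1.497. The sign of this estimate turned without control liver 1, where the change was -0.19, and without DKO liver 3, where it was -0.14. Ccnd1 shares 1100 exon bases with LTO1 on the opposite strand, a gene with a mean of 5.27 TPM.

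Ccnd3 (chromosome 17, 47505051 to 47599691, plus strand), the third D-type cyclin gene, had 6.01 to 6.61 TPM in livers labelled DKO and 6.19 to 9.23 TPM in control livers. Its log2 change was -0.16 ± 0.12 (SE, limma adjusted p = 0.529). Ccnd3 shares 361 exon bases with Bysl on the opposite strand, a gene with a mean of 13.4 TPM. The summed D-type level was 26.9 ± 3.1 TPM in livers labelled DKO and 26.2 ± 4.69 TPM in control livers (SD, n = 4). Ccnd1 was the main D-type cyclin in both groups, at 48.0 to 61.2% of the sum in livers labelled DKO and 45.1 to 60.1% in control livers. The share of Ccnd2 was 24.3 ± 4.42% in livers labelled DKO and 18.4 ± 2.21% in control livers.

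**Figure D2:**
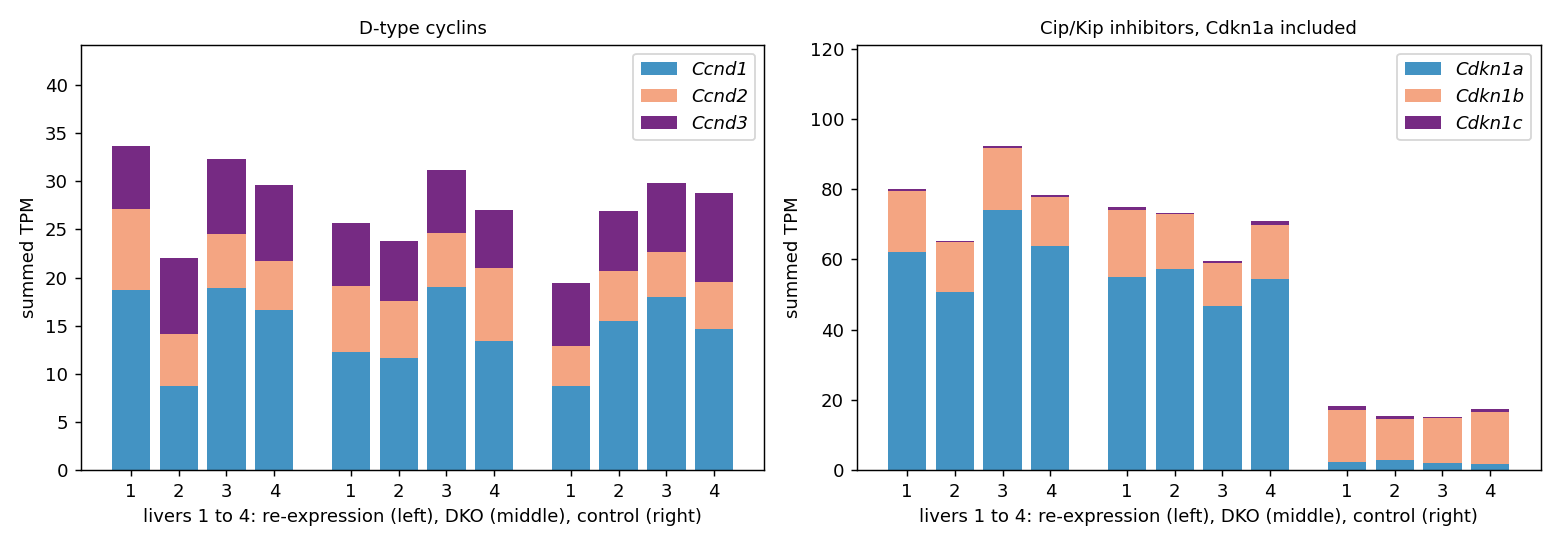
Stacked TPM of the D-type cyclins (left) and of the Cip/Kip inhibitors with Cdkn1a included (right) in each liver, with re-expression, DKO and control livers from left to right. The D-type sums overlap between the 3 groups, and the Cip/Kip sums of 59.5 to 92.3 TPM in the 8 re-expression livers and livers labelled DKO lie above the 15.2 to 18.2 TPM of the controls through Cdkn1a.

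The kinase genes had narrow intervals. Cdk4 (chromosome 10, 127063534 to 127067920, plus strand), whose kinase binds D-type cyclins, had 27.6, 23.8, 27.1 and 24.0 TPM in livers labelled DKO and 26.6, 30.0, 24.3 and 29.3 TPM in control livers. The groups overlapped, and the log2 change was -0.10 ± 0.09 (SE, limma adjusted p = 0.65, 95% interval -0.30 to 0.11). Cdk6 (chromosome 5, 3341485 to 3531008, plus strand), which encodes the close relative of CDK4, had 16.3, 19.2, 18.3 and 18.1 TPM in livers labelled DKO and 18.2, 22.05, 17.5 and 19.7 TPM in control livers. Its log2 change was also -0.10 ± 0.09 (SE, limma adjusted p = 0.628, 95% interval -0.30 to 0.10). For both kinases the interval ends at ratios of TPM + 1 between 0.810 and 1.08. Cdk4 made up 58.7% of the summed RNA of the 2 kinases in livers labelled DKO and 58.7% in control livers, with SDs of 3.29 and 1.01 percentage points (n = 4). Cdk4 shares 641 exon bases with Tspan31 on the opposite strand, a gene with a mean of 127 TPM. If strand was not used, the overlap may affect the level of Cdk4, in a direction that depends on how shared reads were counted. Cdk6 shares 368 exon bases with Gm17590 on the opposite strand, a gene with a mean of 2.22 TPM.

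Of the inhibitor genes, Cdkn2c (chromosome 4, 109660876 to 109667189, minus strand) encodes p18, an INK4 protein. It had 4.50, 4.96, 3.68 and 4.87 TPM in livers labelled DKO and 7.54, 3.99, 6.80 and 6.26 TPM in control livers. The second control liver lay among the livers labelled DKO and the other 3 controls lay above all of them. The log2 change was -0.35 ± 0.17 (SE, limma adjusted p = 0.306, 95% interval -0.73 to 0.02). Cdkn1b (chromosome 6, 134920401 to 134925513, plus strand), the gene of the Cip/Kip inhibitor p27, had 19.1, 15.5, 12.3 and 15.2 TPM in livers labelled DKO and 14.7, 11.7, 12.9 and 14.9 TPM in control livers. These ranges overlapped and the log2 change was 0.18 ± 0.14 (SE, limma adjusted p = 0.551).

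Cdkn1c (chromosome 7, 143458339 to 143461050, minus strand), the gene of the Cip/Kip inhibitor p57, was the gene of the 10 that fell short of a mean of 1 TPM. It had 1 to 3 reads per library in re-expression livers, 2 to 5 in livers labelled DKO and 1 to 5 in control livers, in all 9, 14 and 14 reads. Its levels were 0.223 to 0.699, 0.462 to 1.22 and 0.248 to 1.13 TPM in the same order. With no filter on low values its log2 change was -0.0033 between livers labelled DKO and control livers, with a 95% interval of -0.46 to 0.45 (limma adjusted p = 1). No difference in Cdkn1c was detected, and so few reads leave small and moderate differences beyond reach.

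The summed Cip/Kip RNA differed by the gene outside the 10. Cdkn1a, the gene of p21, had 46.8 to 57.3 TPM in livers labelled DKO and 1.64 to 2.84 TPM in control livers (log2 change 4.09 ± 0.14 (SE), limma adjusted p = 1.45e-08). Its share of the summed Cip/Kip RNA was 73.2 to 78.5% in livers labelled DKO and 9.32 to 18.5% in control livers. Cdkn1b held 20.7 to 25.4% of that sum in livers labelled DKO and 75.9 to 85.0% in control livers. In re-expression livers Cdkn1a held 77.6 to 81.5% of the sum.

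**Figure D3:**
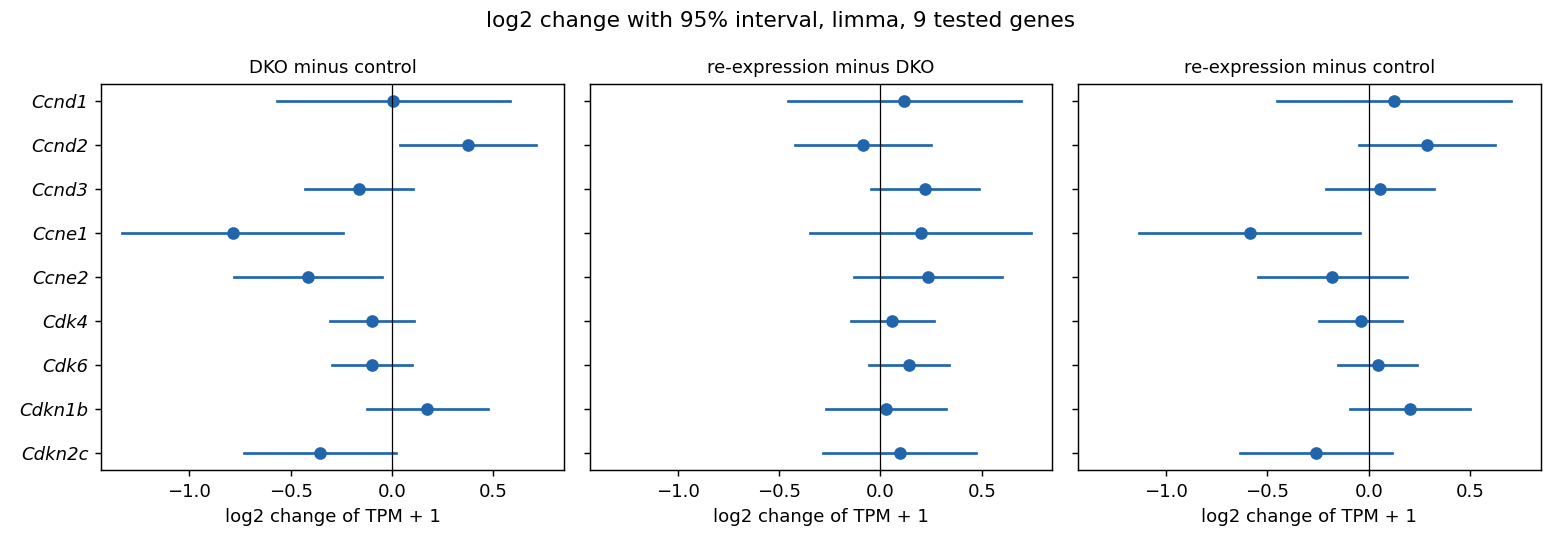
Estimated log2 change of TPM + 1 (points) with 95% interval (lines) from limma for the 9 tested genes in the 3 comparisons, as named above each panel. The intervals of Ccnd2, Ccne1 and Ccne2 exclude 0 before adjustment between livers labelled DKO and controls, and that of Ccne1 between re-expression and control livers.

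What returning REV-ERBalpha changes is the question of the second comparison, between re-expression livers and livers labelled DKO. None of the 9 tested genes was called, against 0.0724% of all genes, and 0 of 9 had an unadjusted p under 0.05, against 6.19% of all genes (limma). Voom called 0 of the 9, against 0.184% of all genes. The authors' deposited table, whose second numbered comparison followed this contrast (r = 0.991 across 4790 genes), called 0 of the 9 as well, against 0.495% of the genes with an adjusted p. The groups did not overlap for 0 of the 9, against 4.25% of all genes. Ccne1 had 3.31, 1.5003, 2.71 and 1.45 TPM in re-expression livers, and livers labelled DKO reached from 0.940 to 2.91 TPM. Re-expression liver 1 lay above every liver labelled DKO, and the other 3 lay within the range of that group. The log2 change of Ccne1 was 0.20 ± 0.25 (SE, limma adjusted p = 1, 95% interval -0.35 to 0.74).

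Ccne2 had 3.77, 2.99, 3.57 and 2.29 TPM in re-expression livers, in the same order of high and low livers as Ccne1 for livers 1 and 3 against 2 and 4, and its log2 change was 0.24 ± 0.17 (SE, limma adjusted p = 0.997). Ccnd2 had 8.38, 5.39, 5.62 and 5.04 TPM in re-expression livers against 5.58 to 7.55 TPM in livers labelled DKO. Its re-expression liver 1 was above all others and the other 3 were near or below the lowest liver labelled DKO, with a log2 change of -0.09 ± 0.15 (SE). Ccnd1 had 18.7, 8.74, 18.9 and 16.6 TPM in re-expression livers, so liver 2 was below the other 3 and below every liver labelled DKO. The log2 change was 0.12 ± 0.26 (SE) for Ccnd1 and 0.22 ± 0.12 (SE) for Ccnd3. Leaving out 1 liver at a time gave 0.018 to 0.36 for Ccnd1, with the highest value without re-expression liver 2.

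The kinases and inhibitors also overlapped. Cdk4 had 25.1 to 30.3 TPM in re-expression livers and 23.8 to 27.6 TPM in livers labelled DKO, with a log2 change of 0.06 ± 0.09 (SE). Cdk6 had 18.5 to 21.1 TPM in re-expression livers and 16.3 to 19.2 TPM in livers labelled DKO, with a log2 change of 0.14 ± 0.09 (SE). Cdkn1b had 14.0 to 17.7 TPM in re-expression livers and 12.3 to 19.1 TPM in livers labelled DKO, and Cdkn2c 3.99 to 5.52 TPM and 3.68 to 4.96 TPM. For all 9 tested genes the 95% interval of this comparison lay within a ratio of TPM + 1 of 0.729 to 1.67.

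The third comparison, between re-expression livers and controls, shares its controls with the first. None of the 9 tested genes was called, against 1.82% of all genes, and 1 of 9 had an unadjusted p under 0.05, against 12.5% of all genes (limma). Voom called 0 of the 9, against 3.07% of all genes, and the groups did not overlap for 0 of the 9, against 7.28% of all genes. The gene with an unadjusted p under 0.05 was Ccne1, at 1.45 to 3.31 TPM in re-expression livers and 3.15 to 4.23 TPM in control livers, with a mean of 2.24 ± 0.917 TPM and 3.74 ± 0.446 TPM (SD, n = 4). Of the re-expression livers, liver 1 reached into the range of the controls. The log2 change was -0.59 ± 0.25 (SE, limma adjusted p = 0.35, 95% interval -1.13 to -0.04). Ccnd2 had a log2 change of 0.29 ± 0.15 (SE, limma adjusted p = 0.503) and Cdkn2c of -0.26 ± 0.17 (SE, limma adjusted p = 0.615). The log2 changes of Cdk4 and Cdk6 were -0.04 and 0.04, each ± 0.09 (SE). Over the 9 genes the median log2 change was 0.04, beside 0.01 for all genes tested.

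The spread between livers was set against counting error, since the genes with few reads are measured less precisely. Over 30 combinations of gene and group the coefficient of variation (CV) of TPM was above the value that counting alone gives at the mean read number in 21, and more than 2 times that value in 7. Ccnd1 was in that class in all 3 groups, with a CV of 30.3% in re-expression livers, 23.9% in livers labelled DKO and 27.3% in control livers, where counting alone gives 7.56 to 8.22%. Ccne1 had a CV of 40.9% in re-expression livers, 46.6% in livers labelled DKO and 11.9% in control livers, where counting alone gives 27.2%, 30.9% and 21.6%. Cdk6, with 529 to 767 reads per library, had CVs of 6.12 to 10.3%, where counting alone gives 3.84 to 4.13%. In control livers its CV of 10.3%, against 4.01% from counting, was also more than 2 times the counting value.

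**Figure D4:**
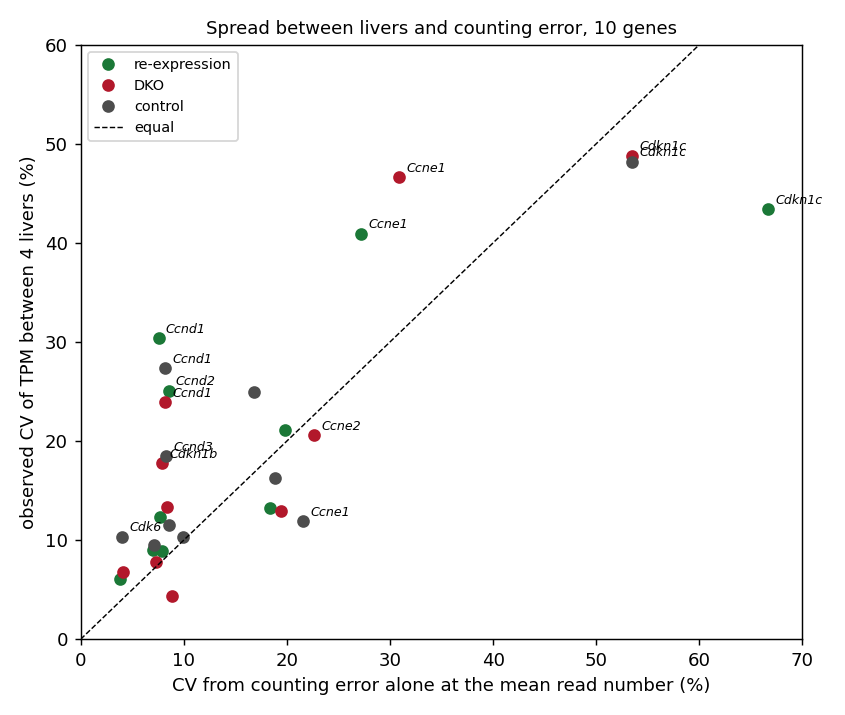
Observed CV of TPM between the 4 livers of a group (vertical axis, %) against the CV that counting error alone gives at the mean read number (horizontal axis, %), for 10 genes in re-expression, DKO and control livers. Points above the dashed line have an observed CV above the counting value, as Ccnd1 does in each group. A CV from 4 livers is imprecise, so a point can lie above the line through counting error alone.

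Other cell cycle genes were read from 3 lists. Of 24 tested genes that act at the G1/S step, 1 was called higher and 0 lower between livers labelled DKO and control livers, with a median log2 change of 0.03. Over the 3 lists 3 of 48 tested genes were called between livers labelled DKO and controls, a share near the 5.33% of all genes. The gene called at the G1/S step was Ccng2, which encodes cyclin G2, an atypical cyclin linked to cell cycle arrest. It had 9.69 to 11.0 TPM in livers labelled DKO and 3.24 to 5.92 TPM in control livers (log2 change 0.94 ± 0.17 (SE), limma adjusted p = 0.00806). Between re-expression and control livers Ccng2 and Ccng1 were called higher. Over the 3 lists, 3 of 48 tested genes were called higher there and 1 lower, against 1.82% of all genes in either direction. Ccng1, a p53 target that encodes cyclin G1, had 83.9 to 119.7 TPM in re-expression livers, 70.2 to 85.4 TPM in livers labelled DKO and 43.4 to 65.1 TPM in control livers, and was not called between livers labelled DKO and controls (limma adjusted p = 0.112). Ccng1 was called in that comparison with size factors (adjusted p = 0.0439) and with voom (0.0247), and the authors' deposited table gave it an adjusted p of 0.0052. The call of Ccng2 in re-expression livers was lost in 16 of 21 alternatives and that of Ccng1 in 2 of 21 (highest adjusted p 0.162 and 0.0585, limma). Without control livers 3 and 4 that of Ccng1 had an adjusted p of 0.0563.

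Of 17 tested genes of S phase and E2F targets, 1 was called higher and 0 lower, against 5.33% of all genes, with a median log2 change of 0.01. Mcm7, which encodes a subunit of the replicative helicase, had 12.3 to 14.3 TPM in livers labelled DKO and 7.03 to 8.67 TPM in control livers (log2 change 0.65 ± 0.10 (SE), limma adjusted p = 0.00413). It was also called between re-expression livers, at 11.7 to 15.2 TPM, and controls (limma adjusted p = 0.00771), with a log2 change of 0.66. That call was lost in 2 of 21 alternatives, with a log2 change of 0.59 without control livers 3 and 4 (adjusted p = 0.0514) and of 0.66 with the 8 livers alone (adjusted p = 0.0523). The other tested genes of the same helicase, Mcm2, Mcm3, Mcm4, Mcm5 and Mcm6, were not called; they are named after their values were seen. Mcm7 shares 321 exon bases with Ap4m1 and 64 with Cops6 on the opposite strand. Of 22 genes of G2 and M phase only 7 reached a mean of 1 TPM, and 1 was called lower and 0 higher. That gene was Wee1, which encodes the kinase that holds CDK1 inactive and is a known clock target, at 8.32 to 9.75 TPM in livers labelled DKO and 21.9 to 34.0 TPM in control livers (log2 change -1.58 ± 0.16 (SE), limma adjusted p = 0.00016). Wee1 had 11.1 to 16.5 TPM in re-expression livers, above every liver labelled DKO (log2 change 0.56 ± 0.16 (SE), limma adjusted p = 0.37) and below every control (log2 change -1.02 ± 0.16 (SE), limma adjusted p = 0.0064). Most mitotic genes were low, and those given here were chosen after their values were seen. Mki67, a marker of cycling cells, averaged 1.38 TPM in re-expression livers, 0.950 TPM in livers labelled DKO and 1.41 TPM in control livers, and Cdk1, the mitotic kinase gene, 0.694, 0.649 and 0.932 TPM in the same order. Aurka averaged 3.64, 4.58 and 3.43 TPM and Kif20a 1.03, 1.48 and 1.24 TPM in that order, with the highest mean in livers labelled DKO. Between livers labelled DKO and controls the log2 change was -0.30 ± 0.25 (SE, limma adjusted p = 0.569) for Mki67. It was 0.32 ± 0.18 (SE) for Aurka and 0.12 ± 0.20 (SE) for Kif20a, neither of them called. Between re-expression livers and livers labelled DKO, limma called none of the 48 tested genes of these lists, against 0.0724% of all genes. Voom called 0 of 48, against 0.184% of all genes. At an unadjusted p under 0.05 there were 2 of 48, Wee1 and Ccng1, against 6.19% of all genes (limma).

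**Figure D5:**
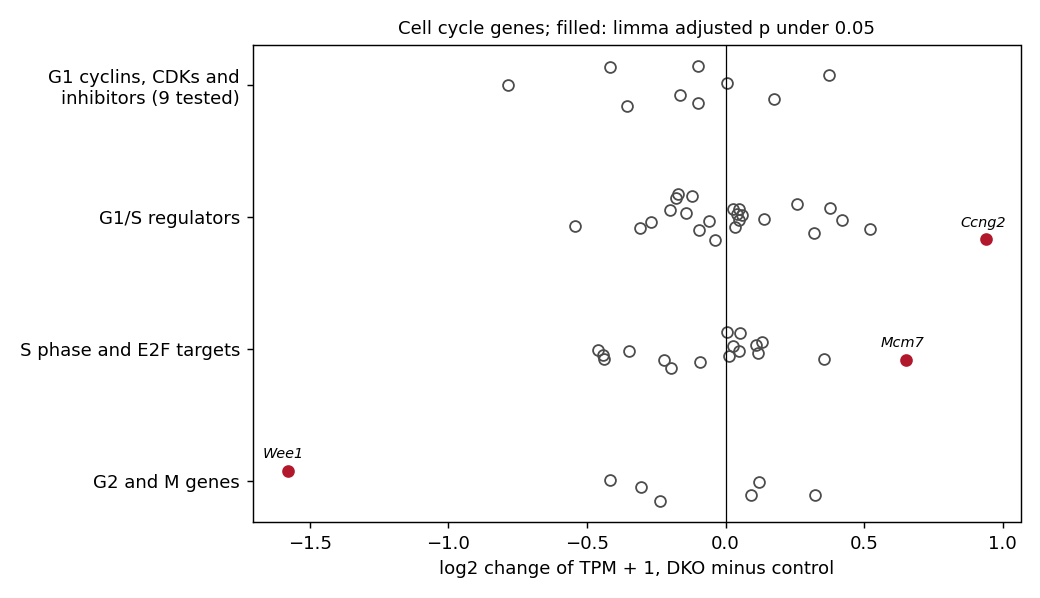
Log2 change of TPM + 1 between livers labelled DKO and control livers (horizontal axis) for the 9 tested genes of the set and for 3 other cell cycle lists, 1 point a gene. Filled points passed an adjusted p under 0.05 (limma), namely Ccng2, Mcm7 and Wee1.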

How the data were processed

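RNA-seq was made from 12 mouse livers (4 per group) with a TruSeq stranded total RNA kit, per the labels' protocols. The authors deposited 1 table of TPM values per gene, with gene lengths, and log2 fold changes, p-values, mean normalized signal per gene and scores (standard errors and test statistics) of 3 numbered comparisons that the headers do not name. Per the submitters' processing notes, bcl2fastq 2.17, STAR 2.7.1a, SAMtools 1.9, featureCounts 2.0.1, DESeq2 1.36.0 and build mm10 were used; no source used here gives the strand setting. Their log2 fold changes were set against the group differences across the 4790 tested genes with a mean normalized signal over 200. The third numbered comparison followed none of the 3 group differences and was not used. Of the 48537 gene IDs, 97.93% matched the mouse GENCODE release 21 annotation.

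TPM values became whole reads (100% within 0.01) once 199 bases were taken off each gene length, which gave 5621667 to 6906221 reads per library. Counting CVs cover counting error only. The 17957 genes with a mean of at least 1 TPM over all livers were fitted together as log2(TPM + 1) with limma 3.58.1 (R 4.3.3, trend over mean level, 9 residual degrees of freedom), for 3 pairwise comparisons of the 3 groups, 2-sided, with Benjamini-Hochberg adjustment over all genes. A fold change on this scale understates the change of low genes. The fit was tested on simulated data. Figures were drawn with matplotlib 3.10.9 (Python 3.11.15). The 20 alternative settings were pseudocount, filter, scaling, voom, the 8 livers of a comparison, a replicate block and leaving out each liver; 1 more, with control livers 1 and 2 as the only controls, was chosen after seeing the data.

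All 10 genes are named. Of the other cell cycle lists, genes called in any comparison are named, and other genes are marked as chosen after their values were seen. The genes and lists were chosen with earlier results of these data known. Nothing says that livers of a group came from separate animals, so p-values measure the spread between these samples.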

Additional observations from a re-analysis of the deposited data

Results flagged for a closer look

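In re-expression livers, 1 value of Ccnd3 and 1 of Cdk4 stood far from the other 3 of their group, by a gap past the critical value of Dixon's test. Ccnd3 had 6.55 TPM in re-expression liver 1, below the 7.82 to 7.96 TPM of the others. Cdk4 had 30.3 TPM in re-expression liver 4, above the 25.1 to 25.8 TPM of the others. Chance flags about 1 in 20 groups, and 42 groups were examined.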

How the results depend on the processing

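Over the alternatives, 549 of 561 values of the tested genes kept their direction and their side of the threshold, 11 turned direction and 1 passed the threshold. Not all of these values could turn direction. An estimate stays the same under the filters, the 8 livers, the replicate block and leaving out a liver of the third group. Voom called 1 of the 9 genes (Ccne1) between livers labelled DKO and controls, where the other alternatives called 0, and leaving out each liver gave 0 to 0. The number of all genes called between livers labelled DKO and controls (958) was 559 with the 8 livers alone and 573 to 922 leaving out each liver. Between re-expression livers and livers labelled DKO (13) it was 20 with the 8 livers, 8 with the replicate block, 33 with voom and 5 to 15 leaving out each liver. Between re-expression and control livers (327) it was 162, 209, 552 and 175 to 332 under the same settings. The labels do not say that replicate numbers pair the livers. Deviations of same-numbered livers had r from -0.069 to -0.021 in the comparisons with livers labelled DKO. Between re-expression and control livers r was 0.038 to 0.137, positive for every replicate number. Under the replicate block Ccne1 had an adjusted p of 0.194 between livers labelled DKO and controls (limma). The cause of these shifts was not tested.

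Estimates near 0 turned sign. Between re-expression livers and livers labelled DKO, Mcm7 was at -0.00612 with size factors and -0.00804 with voom, and between re-expression and control livers Cdk6 was at -0.0082 with control livers 1 and 2 as the only controls, a setting that put the median of all genes at -0.07, against 0.01 with all controls. Leaving out each liver gave -0.19 to 0.13 for Ccnd1 between livers labelled DKO and controls. It gave -0.0019 to 0.093 for Cdk4, -0.071 to 0.13 for Cdkn1b and -0.055 to 0.061 for Mcm7 between re-expression livers and livers labelled DKO. It gave -0.073 to 0.37 for Ccnd1, -0.0087 to 0.16 for Ccnd3, -0.10 to 0.0012 for Cdk4 and -0.00043 to 0.10 for Cdk6 between re-expression and control livers. Depth limits Cdkn1c and the E-type cyclins most, and with a minimum mean of 5 TPM the E-type cyclins were not fitted.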
